A study of Mus musculus with 118 samples.

Results

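The genes examined were the 9 mouse genes that encode the DNA methyltransferases and their regulators (Dnmt1, Dnmt3a, Dnmt3b, Dnmt3l), the TET dioxygenases (Tet1, Tet2, Tet3) and the UHRF proteins (Uhrf1, Uhrf2), out of 26180 genes with a curated RefSeq transcription start site (TSS) on the mouse chromosomes. They were listed by name. Each was set against 3 lists of binding sites in untreated mouse embryonic stem cells (ESCs), at its promoters, taken as each curated TSS plus or minus 2500 bp, and along its body. The 9 genes have 18 distinct curated TSSs.

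The series profiles Polycomb proteins and histone marks by calibrated ChIP-seq (cChIP-seq), in which cells of another species are added as an internal standard, in 118 samples that fall into 42 groups. For the 3 proteins used here the added cells were of the human line HEK293T. The peak lists cover RING1B (part of the catalytic core of PRC1, with 18643 peaks), SUZ12 (a core subunit of PRC2, with 7438 peaks) and PCGF2 (a core subunit of canonical PRC1, with 3680 peaks). All 3 lists draw on untreated PRC1CPM cells, which the labels give as clone 41 of strain E14 with the allele Ring1aI50A/D53K, together with Ring1b(WT->I53A/D56K)fl/fl and, for the recombinase, Rosa26::ERT2-Cre. In these cells RING1A is thus already mutant before treatment, while RING1B is still the wild-type protein, and Cre acts only once tamoxifen is added. The RING1B and SUZ12 lists draw also on untreated PRC1CKO cells (clone B9, strain E14, Ring1a-/-, Ring1bfl/fl, Rosa26::ERT2-Cre), which lack Ring1a. Each line is 1 clone. The labels hold 3 untreated PRC1CPM samples for each of the 3 proteins and 3 untreated PRC1CKO samples for SUZ12. The RING1B data in PRC1CKO cells behind the RING1B list come from outside these samples. A peak list measures no expression, so the labelled cell type could not be set against marker genes. The lists give intervals only, with no replicate, height or depth per peak, so no error between replicates and no test could be given, and every count below is a description of these lists.

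DNA methylation in mammals sits mainly on the cytosine of CpG dinucleotides. DNMT1, brought to newly replicated DNA by UHRF1, copies existing methylation, DNMT3A and DNMT3B place it on unmethylated DNA with DNMT3L as a partner without catalytic activity, and the TET enzymes oxidise it as a step towards its removal. Most CpG-rich promoters, known as CpG islands, stay free of methylation, and in ESCs many of them are bound by PRC1, whose ubiquitin ligase modifies histone H2A. A smaller set also carries PRC2, which methylates histone H3 at lysine 27.

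The promoter sequences of 5 member TSSs show the range of CpG content behind the peaks described below. A pair of Dnmt3a sequences is shown because RING1B lay over each and SUZ12 over the upstream one only. The Tet2 sequence is the one of the 9 genes with the most CpGs and had RING1B without SUZ12. The Tet3 sequence lay under peaks of all 3 lists. The Dnmt3l sequence lay at the edge of a RING1B peak that stopped short of the TSS. Each runs 5′ to 3′ on the strand of the gene, from 250 bases before the TSS to 50 bases after its start, as RefSeq gives it on GRCm38.p6 (mm10), with every CG in capitals. CG reads the same on both strands.

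Dnmt3a, upstream TSS, chr12:3806730-3807029, plus strand: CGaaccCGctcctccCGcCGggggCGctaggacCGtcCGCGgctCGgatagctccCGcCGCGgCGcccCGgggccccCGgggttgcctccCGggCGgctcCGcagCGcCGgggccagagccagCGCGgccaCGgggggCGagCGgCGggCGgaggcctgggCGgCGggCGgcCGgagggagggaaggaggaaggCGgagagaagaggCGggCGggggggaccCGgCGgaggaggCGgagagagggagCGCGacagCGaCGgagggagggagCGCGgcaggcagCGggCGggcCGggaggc
Dnmt3a, downstream TSS, chr12:3891494-3891793, plus strand: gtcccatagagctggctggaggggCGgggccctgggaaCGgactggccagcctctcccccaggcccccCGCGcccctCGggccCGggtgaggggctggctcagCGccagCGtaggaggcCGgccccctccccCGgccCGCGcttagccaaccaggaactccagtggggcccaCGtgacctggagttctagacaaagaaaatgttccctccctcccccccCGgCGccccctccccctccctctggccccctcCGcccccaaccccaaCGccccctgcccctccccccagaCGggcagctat
Tet2, chr3:133544341-133544640, minus strand: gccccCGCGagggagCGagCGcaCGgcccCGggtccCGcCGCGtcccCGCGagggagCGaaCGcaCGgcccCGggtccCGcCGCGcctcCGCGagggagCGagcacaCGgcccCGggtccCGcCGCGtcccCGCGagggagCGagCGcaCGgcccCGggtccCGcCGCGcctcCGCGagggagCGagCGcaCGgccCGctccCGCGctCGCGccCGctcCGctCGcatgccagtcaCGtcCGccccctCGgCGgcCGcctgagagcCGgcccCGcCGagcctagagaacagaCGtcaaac
Tet3, downstream TSS, chr6:83441629-83441928, minus strand: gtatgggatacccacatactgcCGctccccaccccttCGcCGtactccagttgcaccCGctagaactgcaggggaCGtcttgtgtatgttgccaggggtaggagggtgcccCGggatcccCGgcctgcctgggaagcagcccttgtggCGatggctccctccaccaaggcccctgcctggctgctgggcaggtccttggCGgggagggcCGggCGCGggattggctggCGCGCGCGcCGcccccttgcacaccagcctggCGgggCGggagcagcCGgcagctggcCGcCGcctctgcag
Dnmt3l, second TSS, chr10:78049592-78049891, plus strand: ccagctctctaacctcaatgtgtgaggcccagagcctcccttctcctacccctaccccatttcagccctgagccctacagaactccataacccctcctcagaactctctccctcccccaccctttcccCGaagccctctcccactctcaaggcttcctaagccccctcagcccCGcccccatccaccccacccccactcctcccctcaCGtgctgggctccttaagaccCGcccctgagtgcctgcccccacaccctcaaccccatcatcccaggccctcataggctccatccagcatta

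The upstream Dnmt3a sequence holds 46 CGs, the downstream one 18, the Tet2 sequence 57, the Tet3 sequence 22 and the Dnmt3l sequence 4. Of the 32851 promoter sequences in the RefSeq table, 94.6% hold at least 1 CG, and the median is 7. The Tet2 count is above that of 99.8% of these promoters, the upstream Dnmt3a count above that of 98.4% and the downstream Dnmt3a count above that of 70.3%. The Tet3 count is above that of 76.9%, and the Dnmt3l count above that of 31.4%. All 9 genes were matched in that table, with 16 sequences.

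To ask which of the enzyme genes were Polycomb-bound before tamoxifen, the promoter windows were intersected with the 3 lists, a shared 1 bp counting as a peak at the promoter. RING1B lay at a promoter of 9 of the 9 genes, against 53.2% of all 26180 genes. SUZ12 lay at 4 of the 9, Uhrf2, Dnmt3a, Dnmt3b and Tet3, against 24.8% of all genes. PCGF2 lay at 1 of the 9, Tet3, against 13.5% of all genes. Tet3 was accordingly the one member with all 3 factors, which 13.4% of all genes had. The other 5 genes (Dnmt1, Uhrf1, Dnmt3l, Tet1 and Tet2) had RING1B without SUZ12 or PCGF2, against 28.6% of all genes. The shares of the 9 genes, 44.4% for SUZ12 and 11.1% for PCGF2, rest on 4 genes and 1 gene.

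**Figure D1:**
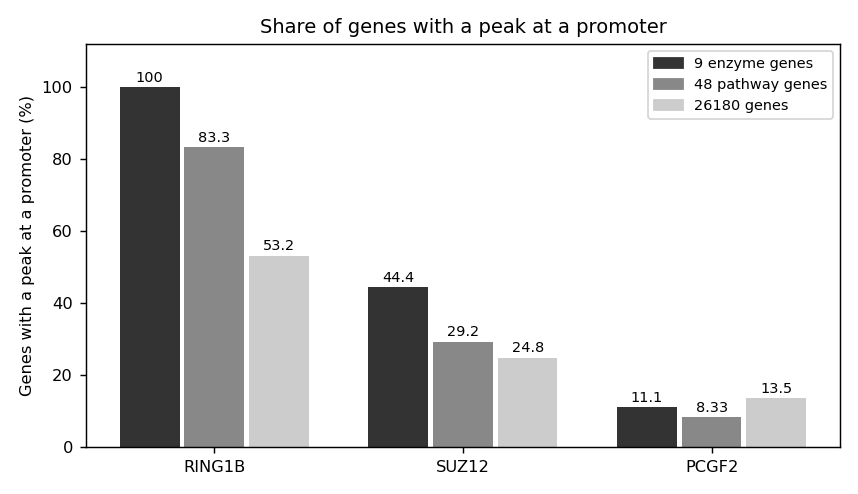
Share of genes, in percent, with a peak of each list (x axis) at a promoter, for the 9 enzyme genes (dark bars), 48 genes of the wider DNA methylation pathway (grey bars) and all 26180 genes (light bars). The enzyme genes stand at 100% for RING1B against 53.2% of all genes, and at 11.1% for PCGF2 against 13.5%. The bars are shares of fixed lists and carry no error.

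By single TSS the picture was less even than by gene. RING1B was within the window of 16 of the 18 member TSSs, against 53.3% of 31647 distinct TSSs. SUZ12 was within the window of 6 of 18, against 24.7%, and PCGF2 of 2 of 18, against 13.4%. Starts that share a peak, such as the upstream Dnmt3a pair, are counted separately here. The TSS itself lay inside a RING1B peak at 13 of 18, against 47.0% of all TSSs. The 5 others belonged to Dnmt3l, with 4, and to Dnmt1, with 1. Of the peaks that reached a window, the one whose nearer edge lay farthest from the TSS was a SUZ12 peak at Uhrf2, at -2347 bp. The 2 TSSs with no RING1B peak in the window lay 5.725 kb (Dnmt3l) and 6.66 kb (Dnmt1) from the nearest one.

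**Figure D2:**
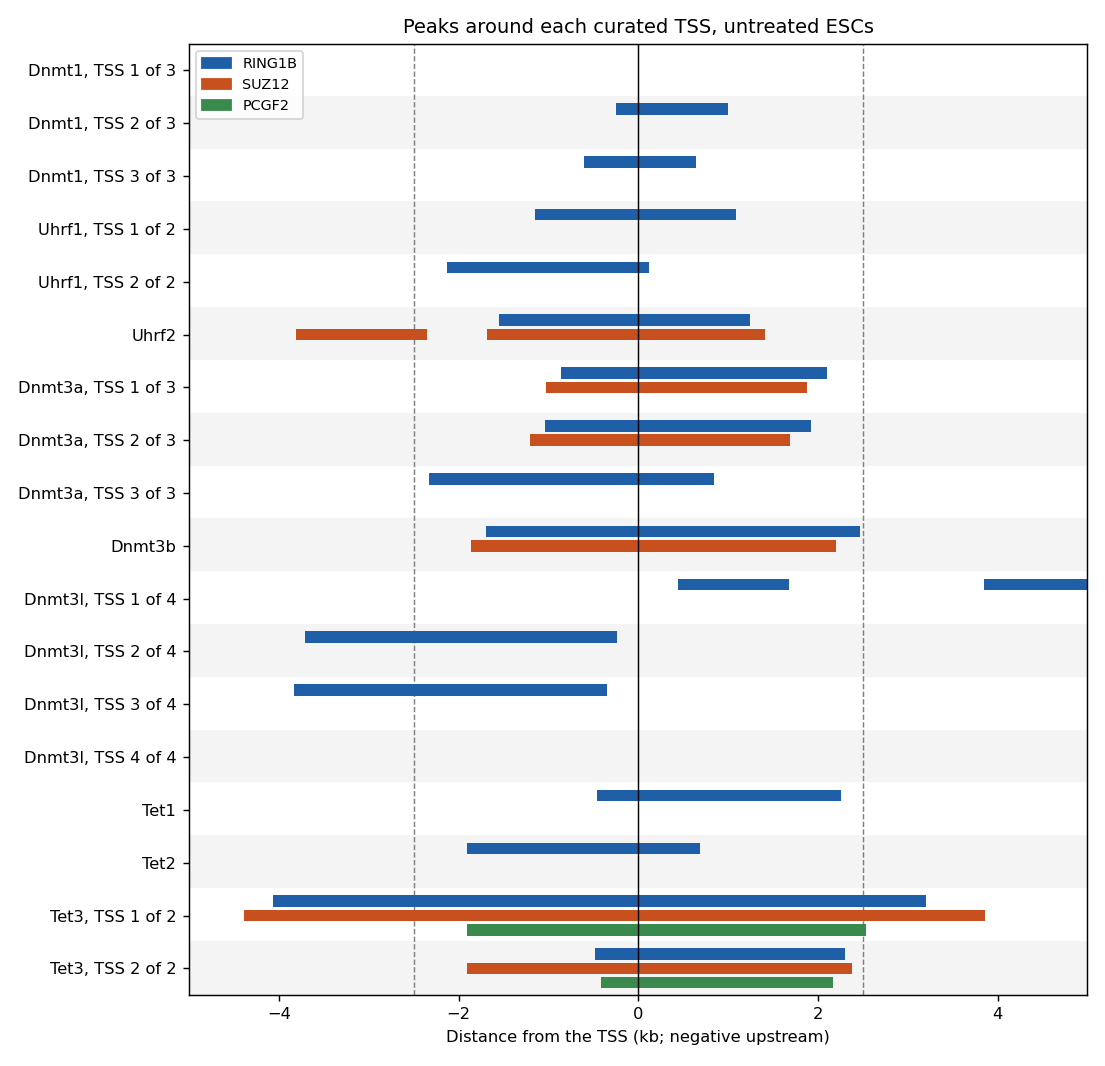
Peaks of the RING1B (blue), SUZ12 (orange) and PCGF2 (green) lists around each of the 18 curated TSSs of the 9 genes, drawn to scale in kb from the TSS in the direction of transcription, with the TSSs of a gene numbered from upstream and the promoter window dashed. No bar crosses 0 at the most upstream Dnmt1 TSS or at any Dnmt3l TSS, and green bars appear at Tet3 alone.

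Among the maintenance genes, Dnmt1 and Uhrf1 had RING1B only. Dnmt1, which encodes the methyltransferase that follows the replication fork, spans 52.683 kb of chromosome 9 on the minus strand. Its RING1B peak, chr9:20951978-20953228, was 1251 bp wide, among the narrower peaks at promoters, since 33.7% of RING1B promoter peaks were narrower still. The peak contained the TSSs at 20952623 and 20952979. The third TSS, at 20959888, was 6.66 kb from it and had no peak of any list in its window. The nearest SUZ12 peak was 76.849 kb from the TSS at 20952623, and the nearest PCGF2 peak 79.298 kb.

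Uhrf1, whose product binds hemimethylated CpGs and recruits DNMT1, had a RING1B peak of 2242 bp at chr17:56302187-56304428. Both of its TSSs, 976 bp apart, lay inside. The peak reached 1150 bp upstream of the first TSS and also touched the promoter window of the neighbouring gene Arrdc5. The nearest SUZ12 peak was 121.67 kb from that TSS. Dnmt1 and Uhrf1 thus had the same pattern, RING1B over the start with no SUZ12 peak near it.

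Uhrf2, a paralogue of Uhrf1, differed from both in having SUZ12. Its RING1B peak at chr19:30028959-30031757 was 2799 bp wide and its SUZ12 peak at chr19:30028831-30031919 was 3089 bp wide. The SUZ12 peak covered the whole RING1B peak and passed it by 128 bp upstream and 162 bp downstream. A second SUZ12 peak of 1464 bp lay 664 bp further upstream, at chr19:30026703-30028166, and overlapped no RING1B peak. That second peak was CpG-poor, with 13.0 CpGs per kb against 61.5 in the SUZ12 peak over the TSS. The nearest PCGF2 peak was 516.55 kb away.

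Dnmt3a, which encodes a de novo methyltransferase, was split between its promoters. The gene spans 107.464 kb of chromosome 12, and its first and last TSSs are 84764 bp apart. At the upstream pair of TSSs, 3806980 and 3807160, RING1B covered chr12:3806125-3809080 (2956 bp) and SUZ12 covered chr12:3805955-3808854 (2900 bp). These intervals were nearly the same, with the SUZ12 edge 170 bp further upstream and 226 bp short of the RING1B edge downstream.

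At the downstream Dnmt3a TSS, 3891744, from which a shorter transcript starts within the gene, RING1B covered chr12:3889417-3892592. That peak was 3176 bp wide, about as wide as the upstream one, and no SUZ12 peak overlapped it. The nearest SUZ12 peak was 82.89 kb away, the one over the upstream promoter. Another RING1B peak of 1129 bp, chr12:3870954-3872082, lay wholly within an intron 17334 bp before the downstream peak. No PCGF2 peak lay within 1480.635 kb of the downstream TSS. Within 1 gene, therefore, RING1B marked both promoters and SUZ12 the CpG-dense upstream one, with 102 CpGs per kb of RING1B peak there against 29.3 downstream. Across the 9 genes the ranges overlapped. RING1B promoter peaks with SUZ12 had from 32.7 (downstream Tet3) to 102 CpGs per kb. Those without SUZ12 had from 12.9 (Dnmt3l) to 54.4 (Dnmt1).

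Dnmt3b, the other de novo methyltransferase gene, had both RING1B and SUZ12 at its single TSS, 153649449, from which all 9 of its curated transcripts start. RING1B covered chr2:153647754-153651912 (4159 bp) and SUZ12 covered chr2:153647589-153651656 (4068 bp). As at Dnmt3a, the SUZ12 edge lay further upstream, by 165 bp, and stopped short downstream, by 256 bp. The RING1B peak was wider than 83.3% of RING1B promoter peaks. PCGF2 was 118.029 kb away.

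Dnmt3l, which encodes the partner protein of the de novo enzymes, was the member whose RING1B peaks avoided its starts. It has 4 curated TSSs over 13048 bp, and none lay inside a peak. The first RING1B peak, chr10:78042729-78043960 (1232 bp), began 442 bp downstream of the most upstream TSS, 78042287, and contained the TSS of the neighbouring gene Aire. The second, chr10:78046132-78049610 (3479 bp), ended 232 bp before the TSS at 78049842 and 349 bp before the one at 78049959. The most downstream TSS, 78055335, from which 3 transcripts start, was 5.725 kb from the nearest RING1B peak.

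Both Dnmt3l peaks lay in intron sequence, with 0 bp of annotated Dnmt3l exon. The wider one was also CpG-poor, with 12.9 CpGs per kb and an observed/expected CpG ratio of 0.23. Together they covered 22.1% of the gene's 21336 bp, the largest share of the 9 genes. If a peak had to contain the TSS, Dnmt3l would have no RING1B promoter peak. The count of genes would then be 8 of the 9, against 48.0% of all genes.

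Among the genes for the oxidising enzymes, Tet1 and Tet2 had RING1B only and Tet3 had all 3 proteins. Tet1, whose product is the main TET enzyme of ESCs together with TET2, had a RING1B peak of 2714 bp at chr10:62885064-62887777. It reached 2260 bp into the gene and 453 bp upstream. The nearest SUZ12 peak was 160.386 kb away.

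The RING1B peak at the Tet2 TSS, 133544390, covered chr3:133543697-133546292 (2596 bp) and lay mostly upstream, reaching 1902 bp before the TSS and 693 bp after it. A second, narrow RING1B peak of 433 bp lay in an intron at chr3:133533983-133534415, 9281 bp from the first, and 5.15% of all RING1B peaks were narrower. The nearest SUZ12 peak was 591.038 kb away, the farthest of the 9 genes. Tet1 and Tet2 had RING1B peaks of similar width that contained the TSS and reached farther downstream at Tet1 and farther upstream at Tet2.

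Tet3, whose product is the TET enzyme of the oocyte and zygote, had the widest RING1B and SUZ12 promoter peaks of the 9 genes. It was the only member with a PCGF2 peak. At its upstream TSS, 83456392, RING1B covered chr6:83453193-83460452 (7260 bp), SUZ12 covered chr6:83452530-83460774 (8245 bp) and PCGF2 covered chr6:83453861-83458296 (4436 bp). The 3 peaks were nested, PCGF2 within RING1B within SUZ12. This RING1B peak was wider than 94.3% of RING1B promoter peaks, and the SUZ12 peak wider than 90.3% of SUZ12 promoter peaks.

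The downstream Tet3 TSS, 83441678, 14714 bp away, had the same nesting on a smaller scale. There RING1B covered chr6:83439373-83442155 (2783 bp), SUZ12 chr6:83439295-83443585 (4291 bp) and PCGF2 chr6:83439507-83442089 (2583 bp). SUZ12 passed RING1B by 1430 bp upstream and by 78 bp downstream. The 3 peaks also contained the TSS of B230319C09Rik, so they cannot be assigned to Tet3 alone.

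Further into Tet3, a RING1B peak of 6624 bp, chr6:83417654-83424277, lay wholly within an intron, 17401 bp downstream of the second TSS at its nearest edge. SUZ12 was present there as 3 peaks of 4507, 3402 and 1693 bp, separated by 830 and 718 bp. The last of them, nearest the TSS at chr6:83426588-83428280, overlapped no RING1B peak, and no PCGF2 peak lay there. This region was CpG-poor, with 11.6 CpGs per kb in the RING1B peak against 36.6 in the RING1B peak at the upstream TSS. In all, SUZ12 peaks covered 18.9% of the Tet3 span, RING1B 13.4% and PCGF2 5.44%.

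**Figure D3:**
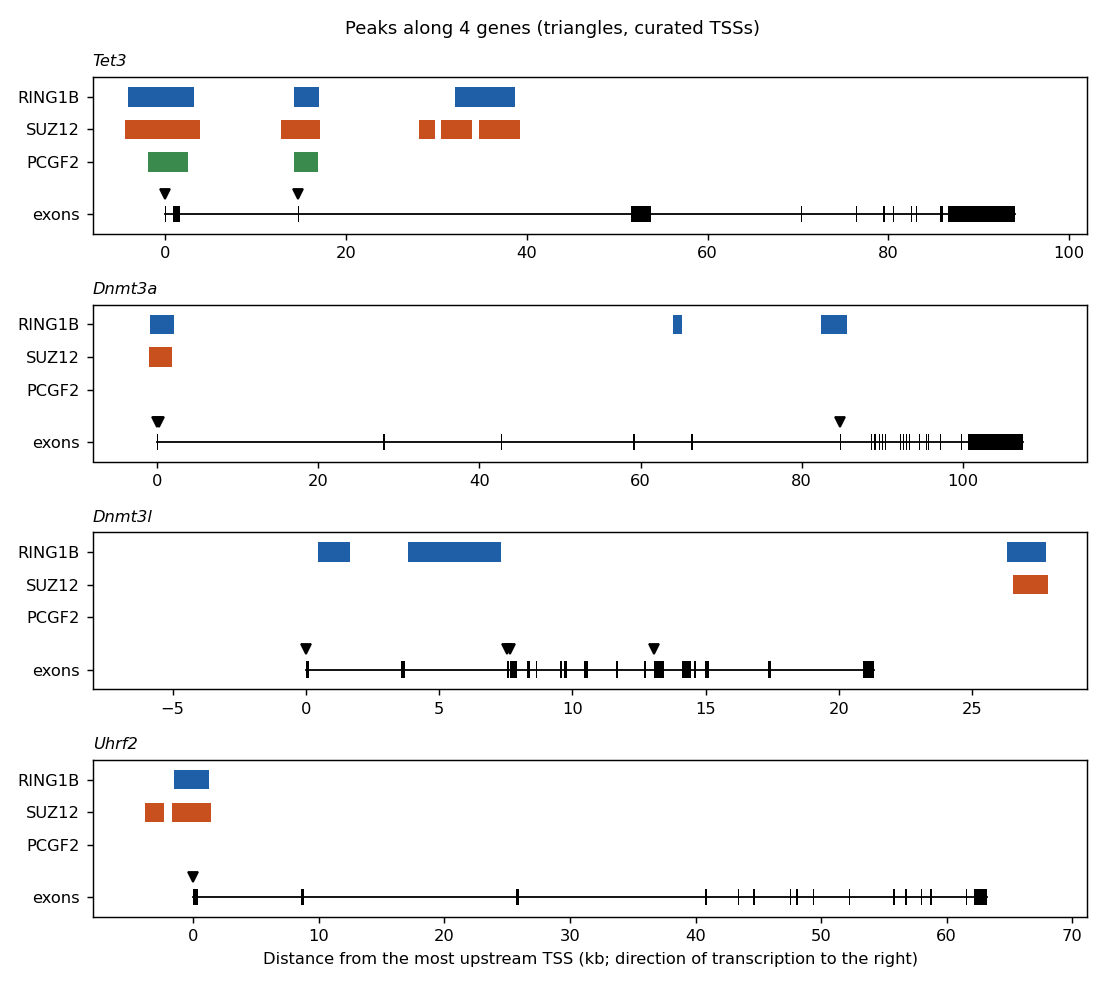
Peaks of the 3 lists along Tet3, Dnmt3a, Dnmt3l and Uhrf2, in kb from the most upstream TSS of each gene with transcription to the right. Black boxes are exons of curated transcripts and triangles are TSSs. Tet3 shows 2 promoter sites with all 3 proteins and an intronic site with RING1B and SUZ12, Dnmt3a shows SUZ12 at the upstream promoter alone, and the rightmost RING1B and SUZ12 peaks in the Dnmt3l panel lie past its end.

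Peaks inside a gene body and away from its own promoters were found for RING1B in 3 of the 9 genes (Dnmt3a, Tet2 and Tet3), against 15.3% of the 10443 genes that, like all 9, span at least 20 kb. For SUZ12 this held for 1 of the 9, Tet3, against 5.94%. For PCGF2 it held for 0 of the 9, against 2.6%. The floor of 20 kb does not match length: Dnmt3a, Tet2 and Tet3 span 107.464, 80.714 and 94.02 kb. Tet1, at 82.755 kb, had no such peak. The share among genes of like length was not computed.

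The widths of the RING1B peaks at member promoters were then compared within the RING1B list. The 12 peaks ran from 1232 to 7260 bp with a median of 2791 bp, against a median of 1729 bp (quartiles 1039 and 3148 bp) over 12064 RING1B peaks at any curated promoter. Of the 12, 10 were wider than that median, the 2 exceptions being the Dnmt1 peak and the Dnmt3l peak over Aire. At all promoters, RING1B peaks that overlap SUZ12 were wider (median 3124 bp, n = 5559) than those that do not (median 1176 bp, n = 6505). The 5 member peaks with SUZ12 had a median of 2956 bp, near that of their class.

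The 7 member peaks without SUZ12 had a median of 2596 bp, and 5 of them (at Uhrf1, Dnmt3a, Dnmt3l, Tet1 and Tet2) were wider than the upper quartile of their class, 1717 bp. At the widths of the 9 genes, therefore, peaks with and without SUZ12 overlapped: the downstream Dnmt3a peak without SUZ12, at 3176 bp, was wider than the upstream one with it, at 2956 bp.

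**Figure D4:**
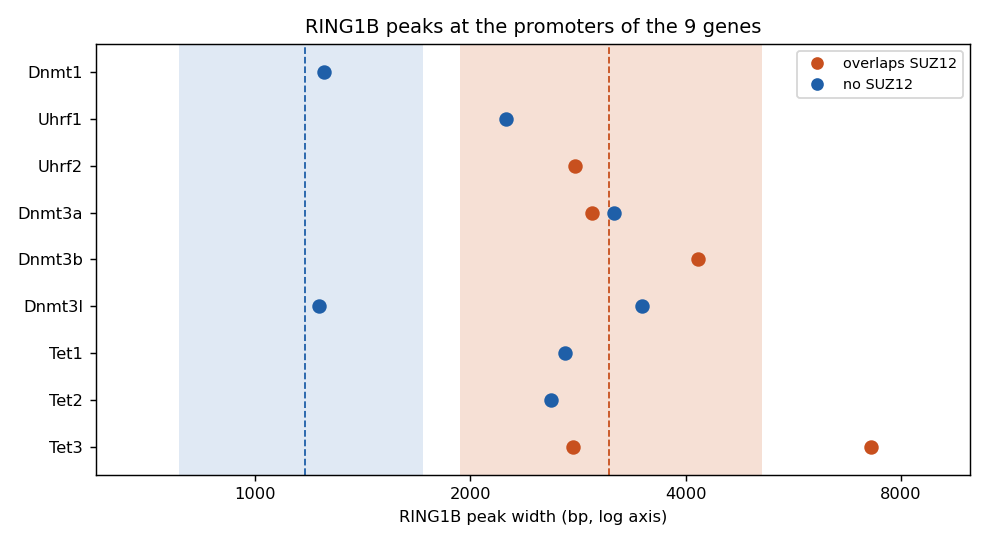
Width in bp (log axis) of each RING1B peak at a promoter of the 9 genes, orange where it overlaps a SUZ12 peak and blue where it does not. Shaded bands give the quartiles and dashed lines the medians of RING1B peaks at all promoters with SUZ12 (orange, median 3124 bp) and without (blue, median 1176 bp), and 5 of the 7 blue points lie to the right of the blue band.

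CpG content was read from the reference sequence as the observed/expected ratio, which divides the CpGs counted by the number that the base composition would give, in the TSS plus or minus 500 bp. Over the 18 member TSSs it ran from 0.059 at the upstream Dnmt1 TSS to 0.99 at the second Dnmt3a TSS, with a median of 0.61 against 0.51 over all TSSs. The 2 member TSSs with no peak of any list had ratios of 0.059 (Dnmt1) and 0.175 (Dnmt3l). TSSs without any peak had a median of 0.227 across the genome, against 0.738 for those with RING1B only and 0.705 for those with RING1B and SUZ12 but not PCGF2. The classes bound by RING1B thus resembled each other in CpG content, and differed from the unbound class.

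The SUZ12-bound member TSSs did not hold all of the high ratios. Ratios at SUZ12-bound TSSs were 0.98 at Uhrf2, 0.96 and 0.99 at the upstream Dnmt3a pair, 0.83 at Dnmt3b, and 0.82 and 0.546 at the upstream and downstream Tet3 TSSs. Among member TSSs with RING1B alone, Tet2 reached 0.92 and the second Uhrf1 TSS 0.84, while Tet1 had 0.71. The Dnmt1 TSSs under RING1B had 0.620 and 0.593, the first Uhrf1 TSS 0.550 and the downstream Dnmt3a TSS 0.499. The RING1B-bound Dnmt3l TSSs were lower, between 0.195 and 0.287.

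A TSS was called CpG-rich at a ratio of at least 0.6 with at least 50% G and C. By that rule 9 of the 18 member TSSs were CpG-rich, against 41.8% of all 31647 TSSs. RING1B lay at 9 of these 9, where 89.2% of all CpG-rich TSSs had it. SUZ12 lay at 5 of the 9 against 40.1%, and PCGF2 at 1 of the 9 against 22.8%. The 5 with SUZ12 are not independent, since the upstream pair of Dnmt3a starts shares a single SUZ12 peak. Among CpG-rich starts, the RING1B share of the enzyme genes was therefore near the background. The other 9 member TSSs had RING1B at 7, against 27.6% of all TSSs that are not CpG-rich. They had SUZ12 at 1, against 13.7%, and PCGF2 at 1, against 6.62%. The 7 with RING1B are not independent, since 3 are starts of Dnmt3l and a pair of these shares a single peak. The Dnmt1 start at 20952979 and the Uhrf1 start at 56303337 share their peaks with CpG-rich starts of the same genes. Their ratios, 0.593 and 0.550, fall below the limit of 0.6. The first Dnmt3l peak and the Tet3 peak also contain the TSSs of Aire and B230319C09Rik.

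**Figure D5:**
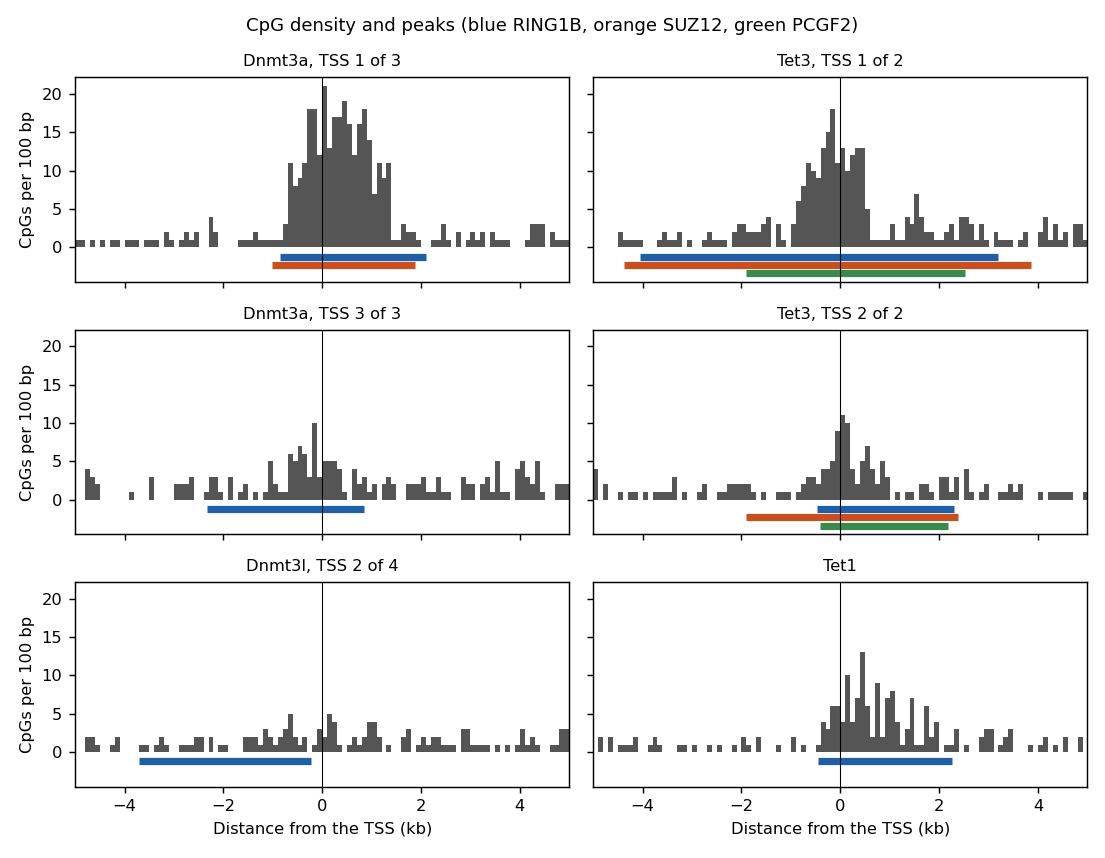
CpG dinucleotides per 100 bp (grey bars, reference sequence) within 5 kb of 6 member TSSs, in kb from the TSS in the direction of transcription, with the extent of RING1B (blue), SUZ12 (orange) and PCGF2 (green) peaks under the bars. The upstream Dnmt3a start sits in a dense block of CpGs under both RING1B and SUZ12, and the RING1B peak before the Dnmt3l start lies over few CpGs.

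The wider pathway was read from a list of 49 genes, of which 48 have a curated TSS (Dnmt3c does not). RING1B lay at a promoter of 40 of the 48, SUZ12 of 14 and PCGF2 of 4. Its RING1B share, 83.3%, was above the 53.2% of all genes, while SUZ12, at 29.2%, was close to the 24.8% of all genes and PCGF2, at 8.33%, was below the 13.5%. With coding transcripts alone 58.4% of all genes had RING1B. The CpG content of the pathway genes was not compared with that of all genes.

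Among 14 partners of the methyltransferases, 12 (85.7%) had RING1B, against 53.2% of all genes. The 2 without it were Trdmt1, an RNA methyltransferase related to the DNMTs, and Setdb1, a histone H3 lysine 9 methyltransferase. SUZ12 lay at 5 of these partners (35.7%, against 24.8% of all genes), namely Ehmt1, Ehmt2, Kdm1b, Dppa3 and Prdm14. Prdm14, a pluripotency factor known to repress the de novo enzymes, had all 3 factors, with a RING1B peak of 5919 bp. Dppa3, which protects against methylation in the early embryo, had a RING1B peak of 4882 bp and a SUZ12 peak of 1978 bp.

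Of the 5 TET partners and genes of cofactor supply, 4 had RING1B, against 53.2% of all genes. The exception was Ogt, a glycosyltransferase that binds TET proteins. Cxxc4, which encodes a CXXC-domain protein that binds TET2, had all 3 factors with a RING1B peak of 9708 bp, and Idh2 had RING1B and SUZ12. In base excision and deamination, RING1B lay at 9 of 13 genes (69.2%, against 53.2% of all genes). SUZ12 lay at Smug1, Gadd45b and Gadd45g (23.1% of these genes, against 24.8% of all genes). PCGF2 lay at Gadd45g (7.69%, against 13.5%). The Smug1 window touched the edge of a RING1B peak of 20700 bp that did not contain its TSS.

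Of the readers of methylated CpG, 7 of 8 had RING1B, and Zbtb4 alone had SUZ12. Of the 5 readers of unmethylated CpG, 5 had RING1B and 3 had SUZ12, namely Kdm2a, Kdm2b and Cxxc1. The shares over all genes were 53.2% for RING1B and 24.8% for SUZ12, and these reader groups are small. Kdm2b, whose product recruits a variant PRC1 to CpG islands, also had PCGF2. The 3 genes of methyl donor supply had RING1B only, as did 28.6% of all genes. Where the SUZ12 peak had to contain a TSS, 18.9% of all genes had one. Of the 48 pathway genes 6 did (Prdm14, Cxxc4, Gadd45b, Gadd45g, Zbtb4 and Kdm2b), or 12.5%, which is below that background. Of the 9 enzyme genes 4 did, as with the wider window.

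Of the 3508 genes with all 3 factors at a promoter, those most like Tet3 by the widths of their widest promoter peaks were Hapln2, Sox7 and Tmem178b. The distance was 0.042, 0.047 and 0.060, in log2 units over the 3 widths. Hapln2, which encodes an extracellular matrix link protein, had widths of 7108 bp for RING1B, 8398 bp for SUZ12 and 4402 bp for PCGF2. Sox7, a transcription factor gene, had 7237, 8513 and 4451 bp in the same order. The likeness is one of width alone.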

How the data were processed

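The data analysed were lists of binding sites in untreated ESCs. The authors mapped read pairs to the mouse mm10 genome plus the human spike-in genome (Bowtie 2), discarded multi-mapping reads and PCR duplicates (Sambamba), called broad peaks with MACS2 against Input and left out blacklisted regions. RING1B and SUZ12 peaks came from merged replicates and were kept where found in both lines, and RING1B peaks that tamoxifen did not reduce in PRC1CKO cells were dropped. PCGF2 peaks were called per replicate and kept where found in all. These rules differ, so widths were ranked within a list. Edges and covered shares set side by side across lists describe the called peaks only, and how far the rules shaped them was not tested. Each deposited peak has 2 values, its first and last base on mm10, converted here to count from base 1, and library depth was not used here.

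TSSs were those of curated transcripts (NM and NR) in the RefSeq annotation of GRCm38.p6. The named genes were the 9 enzyme genes, pathway genes that had SUZ12 or lacked RING1B, the 3 genes most like a member with all 3 factors, and genes whose TSS lay in a member promoter peak. Other pathway genes were counted, and some that the rule selects are not reported here. The members and lists were chosen with earlier results of these data known. The 20 kb limit for gene-body comparison, the CpG-rich class and the split of widths by SUZ12 were chosen after seeing the data, as was the naming of Arrdc5. Overlap code was tested on simulated data. Python 3.11.15, NumPy 2.4.6, pandas 2.3.3 and matplotlib 3.10.9 were used. Alternatives changed the overlap, the window, the peaks kept, their merging, the transcripts and the CpG window. No signal in treated cells was analysed.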

Additional observations from a re-analysis of the deposited data

How the results depend on the processing

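Of 182 values recomputed under 11 alternative settings, 171 kept their value or, for counts, stayed within 1.5 times of it. The calls of the 9 genes in each list were the same under the 500 bp overlap, both other windows, peaks of at least 1 kb, merging and both other transcript sets. The wider window, merging and predicted transcripts can only add calls, and coding transcripts alone kept all 18 member TSSs. These settings therefore could not change the RING1B calls. Where the peak had to contain the TSS, Dnmt3l lost its RING1B call (0 lists), which left 8 genes with RING1B, against 48.0% of all genes. The pathway genes with SUZ12 fell to 6 under that rule, against 18.9% of all genes. With predicted TSSs the members had 47 TSSs, of which 38 had RING1B, 20 SUZ12 and 7 PCGF2. By gene, 42.0% of all 38660 genes then had RING1B at a promoter, 19.7% SUZ12 and 10.8% PCGF2. The shares over all such TSSs were not computed. Merging peaks within 1 kb gave 5217 bp for the widest Uhrf2 SUZ12 peak and moved the median of the members' widest SUZ12 promoter peaks to 4642.5 bp. The median CpG ratio of member TSSs was 0.65 within 250 bp and 0.41 within 2500 bp, against 0.55 and 0.33 for all TSSs. With peaks of at least 1 kb the intronic Tet2 peak was lost. No paired analysis was possible because a list has no separate replicates. The lists give no height or depth, so a missing peak cannot be told apart from signal below the caller's threshold, and the RING1B filter can remove sites.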

Other observations

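Within 10 kb of the 9 genes the lists held further peaks that belong to no member promoter or body. Upstream of Dnmt3b, where no curated promoter lies, were a RING1B peak of 3354 bp at chr2:153640656-153644009, a RING1B peak of 659 bp at chr2:153639172-153639830 and a SUZ12 peak of 735 bp at chr2:153640798-153641532. The wider of these RING1B peaks ended 5439 bp before the gene. Past the end of Dnmt3l, RING1B (1472 bp) and SUZ12 (1300 bp) lay over the TSS of Icosl, so that SUZ12 was absent from Dnmt3l and present 5207 bp beyond it. A RING1B peak of 1202 bp lay over the TSS of Eif3g, 7785 bp from the end of Dnmt1, and one of 892 bp over the TSS of Kdm4b, 2066 bp past the end of Uhrf1. A RING1B peak of 307 bp lay in Arrdc5, 6842 bp before Uhrf1.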
